A study of Mus musculus with 4 samples.

Results

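The collecting duct of the kidney is lined by principal cells and intercalated cells, and 10 genes that mark them were followed here in RNA of isolated mouse glomeruli. The members were found as rows of the deposited TPM table (a read count per unit of gene length, brought to a common total for every library) by matching Ensembl gene IDs to symbols. All 10 were present among 22809 genes. The principal cell genes were Aqp2, Aqp3, Avpr2, Scnn1b and Scnn1g, and the intercalated cell genes were Slc4a1, Slc26a4, Atp6v1g3, Atp6v1b1 and Foxi1. Poly(A) RNA was sequenced from 2 control libraries, with the genotype Control (WT) and no treatment, and from 2 libraries with the genotype HDAC KO, labelled as a podocyte-specific knockout, all at 3 weeks of age. A library held glomeruli pooled from 2 mice, and the series title names Hdac1 and Hdac2 as the deleted genes. The promoter or Cre line behind the knockout is not given in the sources used here. The question of the comparison is which transcripts of the glomerular preparation differ when podocytes lack both enzymes.

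Principal cells reabsorb water and sodium. Vasopressin binds its receptor on the basolateral side, cyclic AMP rises, and the water channel AQP2 is moved to the apical membrane, while water leaves through AQP3 and AQP4, and sodium enters through the epithelial sodium channel. Intercalated cells move acid and base with a vacuolar proton pump (V-ATPase). Type A cells secrete acid and return bicarbonate to the blood through the anion exchanger AE1 (Slc4a1), whereas type B and related cells secrete bicarbonate through pendrin (Slc26a4). FOXI1 is the forkhead transcription factor on which intercalated cells depend. None of these cells belongs to the glomerulus.

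The targeted genes were read first. Neither was lower under the knockout label on the deposited scale, with log2 differences of 0.25 (SE 0.17) for Hdac1 and 0.0061 (SE 0.19) for Hdac2. The Hdac2 difference was -0.20 after median-ratio scaling, -0.17 with quantile normalization, -0.20 with voom, -0.12 without control replicate 1 and -0.076 without knockout-labelled replicate 1, none past the threshold, so the direction of each difference below rests on the labels. Whole reads recovered from the TPM numbered between 12876939 and 20943138 per library. All 9 tested members were higher in control replicate 1 than in control replicate 2, and 8 of 9 were higher in knockout-labelled replicate 1 than in replicate 2, by medians of 0.50 and 0.38 log2 units, whereas all genes tested had medians of -0.28 and -0.09. The 10 podocyte genes and the 8 glomerular endothelial genes went the other way, with 0 of them higher in replicate 1 of either group. The podocyte list summed to 351 and 799 TPM among controls, against 130 and 340 TPM under the knockout label, with none at 0. The proximal tubule list summed to 42276 and 8303 TPM among controls, against 4301 and 5116 TPM under the knockout label. Most of the first sum was 1 gene, Kap, at 31062.5 and 987 TPM among controls, against 1004 and 1202 TPM under the knockout label. By its median gene the list differed between the controls by 0.57 log2 units. Macrophage genes summed to 57.0 and 132 TPM among controls, against 699.9 and 755 TPM under the knockout label. All 8 lay above both controls, as did all 9 genes of parietal and injured epithelium, beside 36.7% of all genes tested. Those 9 summed to 1117 and 4546 TPM among controls, against 30216 and 21801 TPM under the knockout label. Most of each sum was 1 gene, Spp1, at 1001 and 4293 TPM among controls, against 28478 and 20424 TPM under the knockout label. The endothelial list summed to 297 and 643 TPM among controls, against 233 and 480 TPM under the knockout label. The 10 collecting duct members summed to 2137 and 1394 TPM among controls, against 1554 and 1218 TPM under the knockout label. That was more than the podocyte or the endothelial list in each library. The glomerular label was thus met by podocyte and endothelial RNA, together with a larger sum of proximal tubule RNA. The part of these in the differences of the collecting duct genes was not tested. Xist, transcribed in female cells, was at 173 TPM in control replicate 2 and at or below 0.127 TPM in the other 3 libraries, and the Y-linked Ddx3y was at 8.45 TPM there and between 23.6 and 26.1 TPM in the others. Control replicate 2 thus held Xist and Y-linked RNA together, and members whose call changes are also given without it.

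Of the 10 members, 9 had a mean of at least 1 TPM and were tested, and Avpr2 was not. None of the 9 passed an adjusted p of 0.05 by limma, where 0.00537% of the 18612 genes tested were called in either direction, and voom on recovered whole reads called 0 as well. At an unadjusted p under 0.05, 3 of the 5 intercalated cell genes and 0 of the 4 tested principal cell genes were lower under the knockout label, against a background of 4.46% of all genes tested. None of the 9 was higher at that threshold, against 13.4% of all genes tested. The 3 were Slc4a1, Slc26a4 and Atp6v1b1. Both knockout-labelled values lay below both control values for these 3 and for Aqp3, against 14.3% of all genes tested. No tested member lay above both controls, against 36.7% of all genes. By mean TPM the order was Aqp2 (rank 75 of the tested genes), Aqp3 (188), Slc26a4 (294), Scnn1b (395), Scnn1g (538), Atp6v1b1 (717), Foxi1 (760), Atp6v1g3 (784) and Slc4a1 (2027), and each neighbouring pair in this order overlapped in TPM over the 4 libraries. Without control replicate 2, 3 of the 5 intercalated and 2 of the 4 principal cell genes (Aqp3 and Aqp2) were lower at an unadjusted p under 0.05 and 0 were higher, beside 7.74% of all genes lower and 26.6% higher in that fit.

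**Figure D1:**
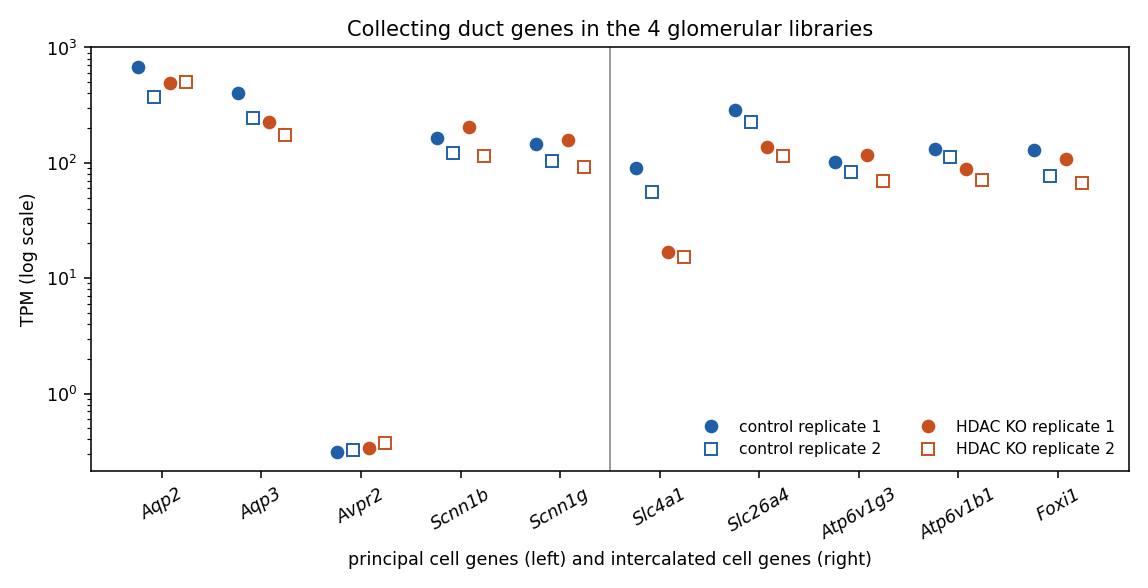
TPM of each of the 10 genes (log axis) in the 2 control libraries (blue) and the 2 knockout-labelled libraries (orange), with replicate 1 as filled circles and replicate 2 as open squares. Slc4a1 and Slc26a4 separate by group, from 55.8 and 90.8 TPM to 15.3 and 16.8 TPM for Slc4a1, while Aqp2, Scnn1b, Scnn1g, Atp6v1g3 and Foxi1 overlap and Avpr2 stays below 1 TPM throughout.

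The sequence just upstream of a gene is shown for 3 members, a pump gene, an exchanger gene and a water channel gene, to set genes apart by group beside one that was not. Atp6v1b1 and Slc26a4 were lower in both knockout-labelled libraries, and Aqp2 overlapped between the groups. Each stretch is the 250 bases before the RefSeq gene start in GRCm38.p6, 5′ to 3′ on the strand of the gene, and capitals mark a match to the forkhead motif TGTTTAC.
Atp6v1b1, chr6:83742767-83743016, plus strand: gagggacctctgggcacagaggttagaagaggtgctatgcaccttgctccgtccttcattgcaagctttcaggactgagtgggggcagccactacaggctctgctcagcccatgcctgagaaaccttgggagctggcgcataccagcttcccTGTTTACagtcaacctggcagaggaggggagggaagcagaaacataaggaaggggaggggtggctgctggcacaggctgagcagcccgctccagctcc
Slc26a4, chr12:31559985-31560234, minus strand: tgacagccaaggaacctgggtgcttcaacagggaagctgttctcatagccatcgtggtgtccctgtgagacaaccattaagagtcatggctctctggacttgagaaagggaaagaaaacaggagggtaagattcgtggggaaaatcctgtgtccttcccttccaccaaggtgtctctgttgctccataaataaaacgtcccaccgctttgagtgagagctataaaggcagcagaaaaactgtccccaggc
Aqp2, chr15:99578806-99579055, plus strand: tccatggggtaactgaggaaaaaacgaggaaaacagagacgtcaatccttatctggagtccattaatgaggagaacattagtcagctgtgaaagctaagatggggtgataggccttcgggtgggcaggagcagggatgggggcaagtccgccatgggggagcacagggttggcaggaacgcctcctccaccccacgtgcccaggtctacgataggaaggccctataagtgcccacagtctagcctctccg
Promoters were found for 9 members, with no entry matched for Slc4a1. TGTTTAC, on either strand, was present in 2 of the 9, Atp6v1b1 (98 to 92 bases before the start) and Avpr2 (131 to 125 bases before the start), both on the strand of the gene, and in 3.16% of all 32817 promoter windows. The other forkhead form searched, TATTTAC, was in 0 of the 9 and in 2.73% of all, and the grainyhead motif AACCGGTT in 0 of the 9 and in 0.116% of all. Either forkhead form was in 5.76% of all windows, some of which held both. A match describes the letters only.

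Slc4a1 showed the largest difference of the 10 members. The gene encodes the chloride-bicarbonate exchanger of the basolateral membrane of type A cells, also known as band 3 of red cells, and lies on chromosome 11 (102348824 to 102366203 in GRCm38, minus strand). Its level was 90.8 and 55.8 TPM in control replicates 1 and 2 and 16.8 and 15.3 TPM in knockout-labelled replicates 1 and 2. Both controls stood above both knockout-labelled libraries, with means of 73.3 ± 24.7 and 16.1 ± 1.09 TPM (SD, n = 2 in each). The difference was -2.08 on the log2(TPM + 1) scale (SE 0.26), 4.23-fold lower, with an adjusted p of 0.0928 by limma. It ranked 70 by p among the 18612 genes. The recovered reads behind these values numbered 2970 and 1460 among controls, against 590 and 626 under the knockout label. Without control replicate 2 the difference was -2.43 and passed (adjusted p = 0.00932 by limma), in a fit in which 2.8% of all genes were called lower. Over all 13 alternatives the adjusted p ran from 0.00932 to 0.344, and the difference kept its direction in each.

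Because red cells also make Slc4a1, the red cell list was read beside it. The alpha globin gene Hba-a1 was at 11.6 and 32.2 TPM for control replicates 1 and 2, against 3.10 and 26.8 TPM under the knockout label. Hbb-bs, a beta globin gene, was at 18.9, 72.8, 7.27 and 40.9 TPM in the same order. The log2 differences were -0.94 (SE 0.96, adjusted p = 0.669 by limma) for Hba-a1 and -1.04 (SE 0.93, adjusted p = 0.620) for Hbb-bs, and the groups overlapped for each. The ratio of Slc4a1 to Hba-a1 overlapped as well, at 7.83 and 1.73 among controls, against 5.44 and 0.571 under the knockout label. Epb42, which encodes a partner of band 3 in the red cell membrane, was at 0.221 and 0.518 TPM among controls, against 2.17 and 2.32 TPM under the knockout label. Of the 13 listed red cell genes 9 were in the table and 7 were tested, with 0 lower and 1 higher (Epb42) at an unadjusted p under 0.05, where all genes had 4.46% lower and 13.4% higher. Epb42 met the filter of a mean of 1 TPM only through the knockout-labelled libraries (mean 2.24 TPM, against 0.369 TPM in controls). Its count as higher is therefore not independent of the filter. The list summed to 47.5 and 136 TPM among controls, against 28.8 and 95.0 TPM under the knockout label. Rhag stayed at or below 0.400 TPM, and Ermap was listed at 0 in control replicate 2. The values are per gene, so the kidney and red cell forms of Slc4a1 were not separated, and the part of red cell RNA in the Slc4a1 values was not tested.

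Slc26a4 encodes pendrin, the apical chloride-bicarbonate exchanger of type B cells, on chromosome 12 (31519827 to 31559969, minus strand). Its level was 285 and 225 TPM among controls, against 138 and 114 TPM under the knockout label. The groups did not overlap, with means of 255 ± 42.1 and 126 ± 16.8 TPM (SD, n = 2 in each). The difference was -1.01 (SE 0.20), 2.01-fold lower, with an adjusted p of 0.110 by limma, and -1.18 without control replicate 2, where it passed (adjusted p = 0.0334). Over the 13 alternatives its adjusted p ran from 0.0334 to 0.519, and it too kept its direction in each.

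The pump subunit genes were not alike. Atp6v1b1 encodes the B1 subunit that intercalated cells use in the catalytic part of the V-ATPase, on chromosome 6 (83742990 to 83758855, plus strand). It was at 133 and 111 TPM among controls, against 88.8 and 70.5 TPM under the knockout label, both below both controls (log2 difference -0.61, SE 0.19, adjusted p = 0.199 by limma). Atp6v1g3 encodes the kidney form of the G subunit of the same pump, on chromosome 1 (138273738 to 138289462, plus strand). It was at 101 and 83.7 TPM among controls, against 117 and 70.2 TPM under the knockout label, which lay above and below both controls (-0.023, SE 0.28, adjusted p = 0.977).

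Foxi1, on chromosome 11 (34204338 to 34208089, minus strand), was at 130 and 77.0 TPM among controls, against 108 and 67.4 TPM under the knockout label. The groups overlapped, and replicate 1 was the higher library in each. The difference was -0.23 (SE 0.34, adjusted p = 0.783 by limma). Its sign turned without control replicate 1 (0.14) and without knockout-labelled replicate 2 (0.11), as did that of Atp6v1g3 (0.11 and 0.34).

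Among the principal cell genes, the water channel genes came first by level. Aqp2, which encodes the vasopressin-regulated apical water channel (chromosome 15, 99579055 to 99584547, plus strand), was at 682 and 374 TPM among controls, against 493 and 499 TPM under the knockout label. Both knockout-labelled values lay between the controls, and the difference was -0.025 (SE 0.32, adjusted p = 0.978 by limma). It was 0.081 with quantile normalization and 0.41 without control replicate 1. Aqp3, which encodes a water and glycerol channel of the basolateral membrane (chromosome 4, 41092722 to 41098183, minus strand), was at 405 and 243 TPM among controls, against 228 and 175 TPM under the knockout label. The groups did not overlap, by a gap of less than the distance between the controls, and the difference did not pass (-0.65, SE 0.30, adjusted p = 0.337). Without control replicate 1 it was -0.29, and without control replicate 2 it was -1.02.

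Avpr2, the vasopressin receptor gene on the X chromosome (73892102 to 73895502, plus strand), was at 0.311 and 0.324 TPM among controls, against 0.339 and 0.373 TPM under the knockout label. These values rest on 6, 5, 7 and 9 recovered reads. Its exons share 81.3% of their bases with Arhgap4 on the opposite strand, and the strand setting of the counting is not given in the sources used here. A difference was not readable at this depth.

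The sodium channel genes Scnn1b and Scnn1g lie on chromosome 7, 96562 bases apart (Scnn1b at 121865038 to 121918514 and Scnn1g at 121734479 to 121768475, both plus strand), and encode the beta and gamma subunits. Scnn1b was at 164 and 121 TPM among controls, against 206 and 115 TPM under the knockout label. Scnn1g was at 146 and 103 TPM among controls, against 158 and 91.2 TPM under the knockout label. For both genes the knockout-labelled libraries enclosed the controls, with replicate 1 highest and replicate 2 lowest. The differences were 0.13 (SE 0.32, adjusted p = 0.875) and -0.032 (SE 0.32, adjusted p = 0.972 by limma). The sign for Scnn1b turned with median-ratio scaling, with voom or when 1 library was left out, and that for Scnn1g only when 1 library was left out.

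The third subunit gene, Scnn1a, which encodes the alpha subunit, differed in its values from the other two. It was at 156 and 127 TPM among controls, against 104 and 80.2 TPM under the knockout label (-0.62, SE 0.21, adjusted p = 0.218 by limma). The ratio of Scnn1a to Scnn1b, in TPM and so per length, was 0.952 and 1.05 among controls, against 0.504 and 0.697 under the knockout label. The ratio of Scnn1b to Scnn1g was 1.12 and 1.17 in the controls, and the lower of the knockout-labelled libraries had 1.26. The ratio of Aqp2 to Aqp3 was 1.68 and 1.54 among controls, against 2.17 and 2.86 under the knockout label.

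Ratios between members were taken within each library. The ratio of Slc4a1 to Aqp2 was 0.133 and 0.149 among controls, against 0.0342 and 0.0307 under the knockout label. The ratio of Slc26a4 to Aqp2 was 0.417 and 0.602 among controls, against 0.279 and 0.228 under the knockout label. The ratio of Foxi1 to Aqp2 overlapped, at 0.190, 0.206, 0.218 and 0.135 in control replicates 1 and 2 and knockout-labelled replicates 1 and 2. The exchanger genes thus stood lower against Aqp2 in both knockout-labelled libraries, and for Foxi1 the groups overlapped.

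Within the intercalated cell genes, the ratio of Slc4a1 to Foxi1 was 0.700 and 0.725 among controls, against 0.157 and 0.227 under the knockout label. The ratio of Atp6v1b1 to Foxi1 overlapped between the groups, at 1.02 and 1.45 among controls, against 0.825 and 1.05 under the knockout label. Slc26a4 against Slc4a9, the gene of another bicarbonate transporter of type B cells, was 2.06 and 1.69 among controls, against 1.02 in each knockout-labelled library. The ratio of Atp6v1b1 to Atp6v1b2, the gene of the widely expressed form of the same subunit, was 1.28 and 1.12 among controls, against 0.925 and 0.727 under the knockout label. Atp6v1g3 against the widely expressed Atp6v1g1 overlapped, at 0.588 and 0.464 among controls, against 0.894 and 0.432 under the knockout label. The ratios are given as values and were not tested. In bulk RNA, fewer cells of a type and less RNA per cell cannot be told apart.

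**Figure D2:**
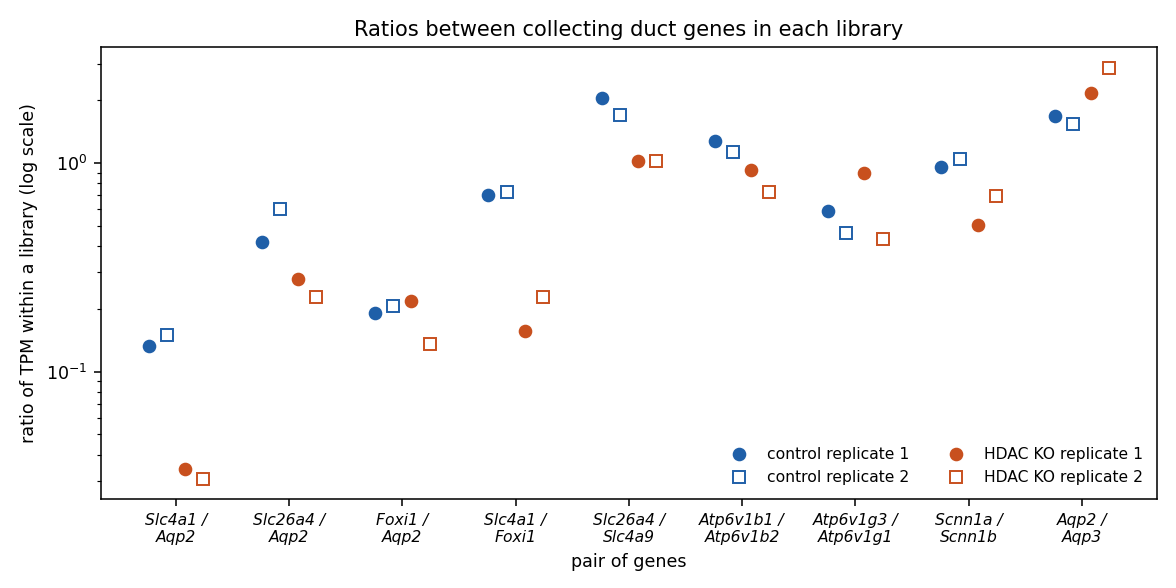
Ratios of TPM between pairs of genes within a library (log axis), in the same colours and symbols for the 2 control and 2 knockout-labelled libraries. Slc4a1 against Aqp2 separates by group (0.133 and 0.149 against 0.0342 and 0.0307), while Foxi1 against Aqp2 and Atp6v1g3 against Atp6v1g1 overlap.

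As sets, the 5 intercalated cell genes had a mean log2(TPM + 1) of 7.09 and 6.63 among controls, against 6.28 and 5.86 under the knockout label. The 4 tested principal cell genes had a mean of 8.16 and 7.53 among controls, against 7.95 and 7.45 under the knockout label. The intercalated set minus the principal set was therefore -1.07 and -0.90 log2 units among controls, against -1.67 and -1.60 under the knockout label. As a share of the summed TPM of all 10 members, the intercalated cell genes held 34.6% and 39.7% among controls, against 30.1% and 27.7% under the knockout label. The median log2 difference was -0.61 over the 5 intercalated cell genes and -0.028 over the 4 tested principal cell genes, beside 0.17 over all genes tested. After median-ratio scaling, which moved the median of all genes by 0.18 to -0.015, these medians were -0.83 and -0.25, and with quantile normalization -0.61 and 0.039. With 1 library left out the intercalated median ran from -0.78 to -0.45. The principal median turned sign, from -0.37 without control replicate 2 and -0.36 without knockout-labelled replicate 1 to 0.28 without control replicate 1.

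A wider list of 18 other intercalated cell genes gave 17 tested genes, with 0 called by adjusted p, 6 lower and 0 higher at an unadjusted p under 0.05 (4.46% and 13.4% of all genes), and a median of -0.47, which was -0.28 without control replicate 1 and -0.25 without knockout-labelled replicate 2. The 6 were Insrr, Rhcg, Rhbg, Car12, Spink8 and Atp6v1c2. Of the 17, 9 lay below both controls and 1 above, beside 14.3% and 36.7% of all genes. Slc26a7, among the 9, met the filter of a mean of 1 TPM only through the controls (mean 2.17 TPM, against 0.826 TPM under the knockout label). Its place below both controls is therefore not independent of the filter. Insrr, a receptor kinase gene that marks type B cells and senses alkaline pH, was at 75.0 and 65.9 TPM among controls, against 25.0 and 28.9 TPM under the knockout label (-1.35, SE 0.17, adjusted p = 0.0928 by limma). Rhcg, an ammonia transporter gene, was at 294 and 217 TPM among controls, against 137 and 93.9 TPM under the knockout label (-1.15, SE 0.26, adjusted p = 0.127). The related gene Rhbg was 2.74-fold lower, and 61.4% of its exon bases are shared with the predicted gene Gm38392. Car12, which encodes a membrane carbonic anhydrase, was 1.88-fold lower. Without control replicate 2 these genes passed by limma, with adjusted p of 0.0204 for Insrr, 0.0499 for Rhcg, 0.0361 for Rhbg and 0.0232 for Car12, in the fit that called 2.8% of all genes lower.

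Other genes of the same cells overlapped between the groups. Slc4a9 was at 138 and 133 TPM among controls, against 135 and 112 TPM under the knockout label (-0.14, SE 0.17, adjusted p = 0.725 by limma). Aqp6, a channel gene of type A cells, was at 157 and 107 TPM among controls, against 175 and 101 TPM under the knockout label, and the ratio of Slc4a1 to Aqp6 was 0.578 and 0.520 against 0.0964 and 0.151. Dmrt2, a transcription factor gene of type A cells, was at 14.8 and 10.5 TPM among controls, against 23.0 and 14.7 TPM under the knockout label. Genes with no overlap between the groups and genes with overlap thus occurred side by side among genes of type A cells (Slc4a1 and Aqp6) and of type B cells (Slc26a4 and Slc4a9).

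The wider list of 14 other principal cell genes was tested in full, with 0 called, 1 lower and 1 higher at an unadjusted p under 0.05, and a median of -0.10. These counts are near or below the shares of all genes, 4.46% lower and 13.4% higher, and are no result about the list. The median was -0.30 after median-ratio scaling and -0.33 with voom, and it ran from -0.29 without knockout-labelled replicate 1 to 0.043 without knockout-labelled replicate 2. The 1 lower gene was Scnn1a. The 1 higher was Hoxb7, a homeobox gene of the ureteric bud lineage, at 19.3 and 26.2 TPM among controls, against 33.7 and 31.7 TPM under the knockout label (0.52, SE 0.21, adjusted p = 0.279 by limma). Aqp4, the other basolateral water channel gene, had a difference of -0.14 (SE 0.24) and Kcnj1, the ROMK potassium channel gene, of -0.43 (SE 0.19). Of the 18 genes of the vasopressin and aldosterone pathways, all tested, 0 were called, 1 was lower and 1 higher at an unadjusted p under 0.05, which is near or below the 4.46% and 13.4% of all genes. Their median of 0.11 was -0.097 after median-ratio scaling, -0.063 with quantile normalization and -0.16 with voom, and it ran from -0.026 without control replicate 1 to 0.26 without control replicate 2. The 2 genes past the unadjusted threshold were Usp2, a deubiquitinase gene induced by aldosterone (1.97-fold lower), and Cnksr3, a scaffold gene induced by aldosterone (1.68-fold higher). The 16 common V-ATPase subunit genes had a median of -0.22, with 0 called and 0 past an unadjusted p of 0.05 in either direction, and leaving out control replicate 1 gave a median of -0.040, control replicate 2 one of -0.40. Of the 16, 8 lay below both controls and 1 above, beside 14.3% and 36.7% of all genes, so lying below both controls was not particular to intercalated cell genes. The differences of 14 of the 16 were negative, beside 6213 of all 18612 genes tested. Among the 14 were -0.074 (SE 0.15) for Atp6v1b2 and -0.55 (SE 0.24) for Atp6v1a.

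**Figure D3:**
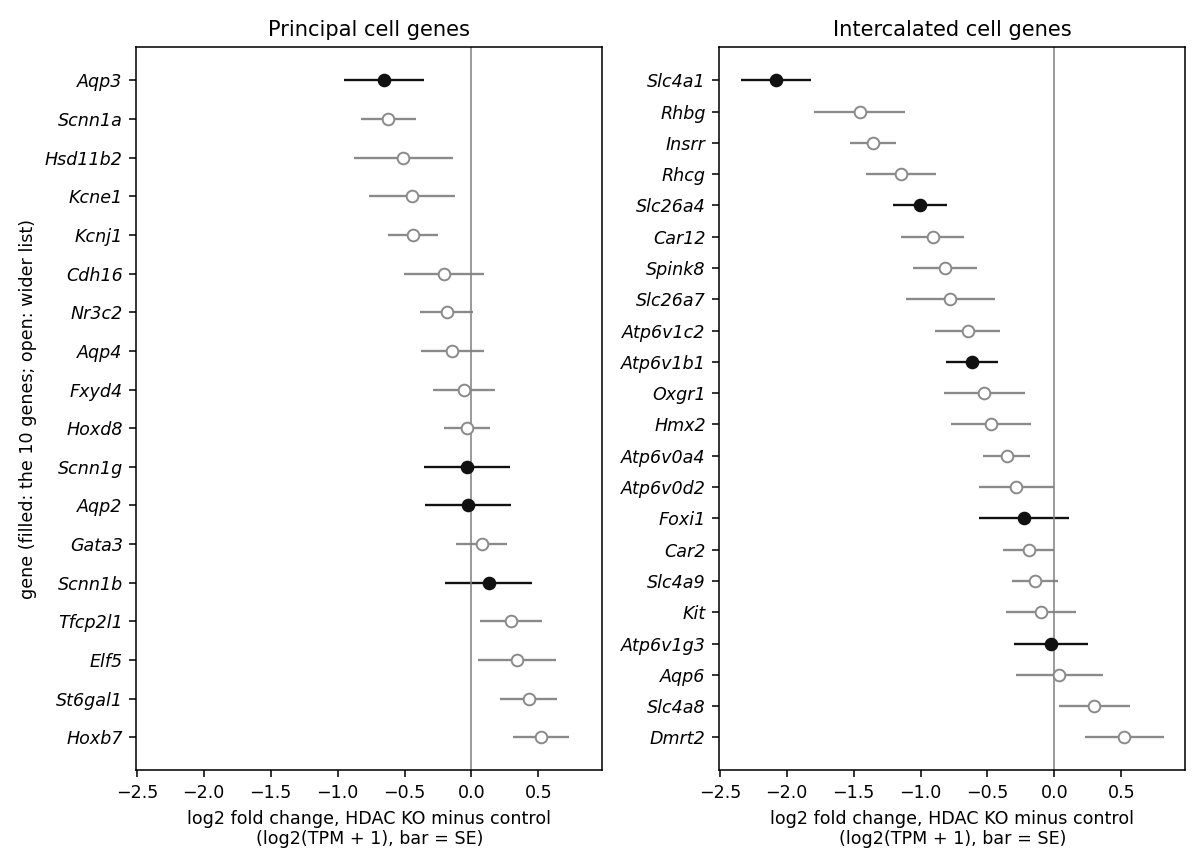
Log2 difference between knockout-labelled and control libraries (log2(TPM + 1) scale) with its standard error for tested principal (left) and intercalated (right) cell genes, the members as filled points and the wider lists as open points. Slc4a1 (-2.08) stands at the low end of the intercalated cell genes and Atp6v1g3 (-0.023) near 0, while Hoxb7 (0.52) stands at the high end of the principal cell genes.

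Genes of neighbouring segments were read beside the collecting duct genes. Of 12 thick limb and distal tubule genes, 3 were lower and 4 higher at an unadjusted p under 0.05 (4.46% and 13.4% of all genes), with 0 called and a median of -0.13. The sign of that median turned with 1 library left out, from -0.40 without control replicate 1 to 0.29 without control replicate 2 and 0.031 without knockout-labelled replicate 1. Pvalb, a calcium buffer gene of the distal convoluted tubule, was 4.05-fold lower and Trpv5, a calcium channel gene, 3.27-fold higher. Of 14 proximal tubule genes, 10 were lower and 0 higher at the same threshold and beside the same shares of all genes, with 0 called and a median of -1.45, which was -0.88 without control replicate 1. Of these 14, 13 lay below both controls and 0 above, and of the 12 thick limb and distal tubule genes 5 lay below and 4 above. The shares over all genes were 14.3% below and 36.7% above. The difference between these segments and the collecting duct genes was not tested.

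**Figure D4:**
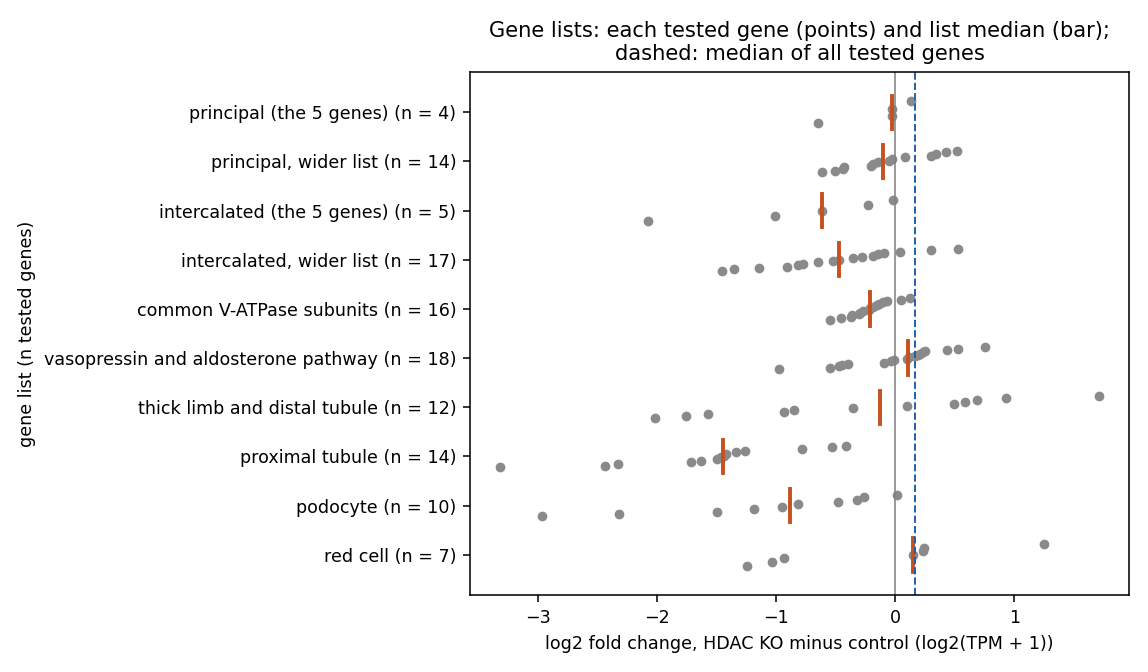
Log2 difference between knockout-labelled and control libraries for each tested gene of 10 lists (points) with the list median (orange bar) and the median of all tested genes (dashed, 0.17). The intercalated lists sit lower (medians -0.61 and -0.47) than the principal lists (-0.028 and -0.10), and the proximal tubule list lowest (-1.45).

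For likeness over the 4 libraries, profiles of log2(TPM + 1) were centred on each gene's mean and compared with the mean profile of each set by Euclidean distance. The protein-coding genes nearest to the intercalated set were Spink8 (distance 0.138), Cyp2a5 (0.152), 2610528J11Rik (0.155), Atp6v1c2 (0.157) and Apela (0.183), of which Spink8 and Atp6v1c2 are in the wider intercalated list. For the principal set all 5 genes entered the mean profile, the untested Avpr2 among them. Those nearest to the principal set were Rab3a (0.0747), Brd3os (0.0763), Serinc1 (0.0771), Aqp8 (0.0802, at 0.756 to 1.42 TPM) and Zmpste24 (0.0884). These distances rest on 4 libraries and describe them only.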

How the data were processed

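Values are TPM for 22809 Ensembl genes as the authors deposited them, in 4 columns whose names match the samples. Tools named in the submitters' processing notes, with neither role nor order, are fastp 0.20, STAR 2.7.9 and featureCounts 2.0.0, besides DESeq2 1.30.1, and the build is GRCm38.p6. No annotation, gene filter or strand of counting is given in the sources used here. Stable IDs gave 22762 symbols in GENCODE M21 (GRCm38). TPM multiplied by exon length came out as whole reads for 22176 genes (97.2%), to a relative tolerance of 1e-06, and these reads give the depth.

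Testing used limma 3.58.1 under R 4.3.3 (lmFit, then eBayes with trend), applied to log2(TPM + 1), which understates the change of low genes, for 18612 genes with a mean of at least 1 TPM. P values were adjusted by Benjamini-Hochberg and called below 0.05. Replicates are separate pools of 2 mice, and 2 residual degrees of freedom remain. The 13 alternatives were voom on recovered reads with trimmed-mean factors, leaving out each library, a replicate block, quantile normalization, scaling by median ratios, no variance trend, pseudocounts of 0.1 or 5, and a filter of 5 TPM or none.

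The members and lists were chosen with earlier results of these data known. From the wider principal cell list 1 gene was left out and is not reported here. The genes named were the members, Hdac1, Hdac2, fixed paralogs and partners, the genes of smallest p in each list (up to 4), and the 5 genes nearest in profile to each set. Aqp6, Dmrt2, Rhag, Ermap, Xist and Ddx3y were named after their values were seen. Promoter sequences are from RefSeq (GRCm38.p6). Plots were drawn with matplotlib 3.10.9, and tables with Python 3.11.15 and pandas 2.3.3.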

Additional observations from a re-analysis of the deposited data

How the results depend on the processing

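Of 13 alternatives, none called a principal cell gene. The count of intercalated cell genes called lower was 0 to 2 with 1 library left out, and the 2, Slc4a1 and Slc26a4, were called without control replicate 2. That fit called 522 genes lower and 1558 higher over all genes, and with other single libraries left out the counts went down to 0 and 0. The 1 gene called lower was lost (0) with quantile normalization, limma without trend and voom on recovered reads. With the replicate number as a block, 1 principal cell gene was lower at an unadjusted p under 0.05. The share over all genes in that fit is not given here, so this count is no result about the members. The gap between the intercalated and principal medians, -0.59, ran from -0.77 to -0.37 with 1 library left out. It was -0.77 without control replicate 1, -0.37 without control replicate 2 and -0.42 without knockout-labelled replicate 1. The cause was not tested.

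Signs turned for 5 members. Aqp2 was 0.081 with quantile normalization and -0.46 to 0.41 with 1 library left out. Scnn1b was -0.088 with median-ratio scaling, -0.062 with voom and -0.29 to 0.55 with 1 left out. Scnn1g ran from -0.43 to 0.36, Atp6v1g3 from -0.39 to 0.34 and Foxi1 from -0.60 to 0.14 with 1 left out. Of the other named genes, Hdac2 was -0.20 with median-ratio scaling, -0.17 with quantile normalization, -0.20 with voom and -0.12 to 0.13 with 1 left out. With 1 left out, Hba-a1 ran from -2.32 to 0.44, Hbb-bs from -2.21 to 0.13, Emcn from -1.18 to 0.046, Plvap from -0.11 to 0.86 and Des from -0.10 to 1.08.

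The same replicate numbers do not mark shared animals in the labels. Deviations of same-numbered libraries correlated at 0.14 across 18612 genes, which are not independent replicates. With the number as a block, 0 members and 1 gene over all were called, as without it. A fit with a library left out assumes that the lone library varies like the others. Depth limits Avpr2 alone among the members.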
